A study of Mus musculus with 90 samples.

Results

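The immunity-related GTPases are large guanosine triphosphate-binding proteins that mouse cells make in quantity after exposure to interferon. The 6 genes of the family followed here were Irgm1, Irgm2, Igtp, Iigp1, Tgtp1 and Ifi47. They were picked by gene symbol from the annotation of the array's probes. That rule uses no measured value, but earlier results of these data were known when the genes were chosen. All 6 had values, on 7 probes, among 12616 features of the array with a value. In the textbook account, Iigp1, Tgtp1 and Ifi47 are effectors, which collect on the membrane of vacuoles that hold intracellular pathogens and break it open. Irgm1, Irgm2 and Igtp are regulators, which keep the effectors inactive on the cell's own membranes. The family is known for defence of macrophages against Toxoplasma, Chlamydia and mycobacteria. Its genes are classical targets of interferon gamma and also respond to type I interferon, which macrophages secrete after Toll-like receptor 4 has sensed lipopolysaccharide.

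RAW 264.7 is a mouse macrophage line grown in culture. Cells were given 1 of 5 treatments for 1, 2 or 4 h, and their total RNA was hybridised to dual-colour oligonucleotide arrays with RNA of untreated cells kept in medium for the same time. The treatments were lipopolysaccharide at 100 ng/ml, labelled with lipid binding protein at 100 pM (LPS), interferon gamma at 5 nM (IFG), the ATP analogue 2-methyl-thio-ATP at 500 µM (2MA), LPS with IFG at those doses (LPS+IFG), and LPS with 2MA (LPS+2MA). The combinations are not labelled with lipid binding protein, so its part in any difference between LPS and a combination cannot be told apart from that of the added agent. Each of the 15 conditions had 3 numbered sets, each with both dye orientations, which made 90 arrays and 45 replicates.

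Each value below is a log2 ratio, treated RNA over untreated RNA, given as mean ± SD of 3 replicates unless another n stands beside it, and a replicate is the mean of a dye-swapped pair, or its 1 array with a value where the other was missing. Which dye is the numerator is not stated by the labels. The ratio was taken as Cy5 over Cy3, which is likely rather than known: genes known to be raised then lay above 0 in 6 of 7 cases for LPS and 5 of 5 measured for IFG. A gene was called higher or lower where the difference was at least 2-fold and its p by limma, adjusted after Benjamini and Hochberg over all features tested in that comparison, was under 0.05. The shares of all features follow this rule unless another is named. Shares at an unadjusted p were not counted, so unadjusted counts of members have no share to be set against. Whether each set was a culture of its own, and whether treatments shared untreated RNA, is not in the labels. The p-values thus measure the spread between these samples, which may be technical. In RNA of a whole culture, more responding cells and more RNA per cell cannot be told apart. The arrays give ratios and not levels, so levels of one gene cannot be set against those of another, and the labelled cell type could not be checked by its markers.

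Missing values touch part of the results. An exact 0 was read as missing. Irgm1 was 0 on 36 of 90 arrays, among them every array of IFG 2 h, LPS+IFG 2 h and LPS+IFG 4 h, and Ifi47 was 0 on 15. Irgm2 was 0 on 4 arrays, Iigp1 on 1, and Igtp and both Tgtp1 probes on none. All 56 zeros lay in the 8 conditions with the highest ratios (IFG and LPS+IFG at every time, LPS 4 h and LPS+2MA 4 h) and none in the other 7, so values went missing where the genes were raised, and the part this plays in the means that remain was not tested. Of 294 probe replicates with a value, 14 rest on 1 array. Among those printed below they are IFG 1 h replicate 2 and LPS 4 h replicate 1 of Irgm1, replicate 2 of IFG 2 h and replicate 1 of IFG 4 h and of LPS+IFG 4 h for Irgm2, IFG 4 h replicate 1 of Iigp1, both replicates of IFG 4 h and replicates 1 and 2 of LPS+2MA 4 h for Ifi47, and each value of Irgm1 or Ifi47 given as the only replicate of IFG 4 h, LPS+IFG 1 h or LPS+IFG 4 h. A member was tested where at least 2 of 3 replicates of each compared condition had a value, and the number tested is given with each count. The deposited ratios also stop at 100-fold, a log2 value of 6.64. Of the 14 values at that limit, 4 belonged to these genes, all from the Tgtp1 probe named NM_011579.

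Promoters are shown because several members moved together. RefSeq promoter windows (GRCm38.p6, 250 bases before to 50 after the start) were matched for 5 members, all on chromosome 11. They were searched on both strands for the GAS element bound by STAT dimers (TTCNNNGAA), for the interferon-stimulated response element or ISRE bound by IRF and STAT factors (GAAA, any 2 bases, GAAA), and for an NF-kB element (GGG, any 2 bases, TTTCC). The lines below give the 100 bases before the start of the 4 members with a match, 5′ to 3′ on the gene's strand, with GAS and ISRE matches in capitals.
Irgm1, chr11:48871421-48871520, minus strand: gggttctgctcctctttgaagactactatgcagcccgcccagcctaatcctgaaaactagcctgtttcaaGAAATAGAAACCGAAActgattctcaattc
Irgm2, chr11:58214877-58214976, plus strand: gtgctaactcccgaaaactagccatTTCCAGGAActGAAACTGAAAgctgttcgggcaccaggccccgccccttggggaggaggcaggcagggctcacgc
Igtp, chr11:58199456-58199555, plus strand: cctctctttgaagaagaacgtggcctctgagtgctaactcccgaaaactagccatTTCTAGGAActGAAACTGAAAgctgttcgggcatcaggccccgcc
Tgtp1, chr11:48992247-48992346, minus strand: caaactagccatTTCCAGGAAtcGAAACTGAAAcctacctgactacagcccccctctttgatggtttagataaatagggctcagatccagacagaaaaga

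Irgm2, Igtp and Tgtp1 each held 1 GAS match followed by 1 ISRE match, and in all 3 the ISRE began 11 bases after the first base of the GAS. The GAS started at base -75 from the start of Irgm2, at -45 in Igtp and at -88 in Tgtp1. Irgm1 held no GAS match and 2 ISRE matches that overlap, from -30 to -21 and from -24 to -15. Of all 32851 windows in the table, 8.3% held the GAS letters, 3.44% the ISRE letters and 0.454% both. None of the 5 windows held the NF-kB letters, which 1.63% of all windows did, and the window of Ifi47 held none of the 3 motifs. A match is a description of letters, and a window without one says nothing about the factor. Irgm2 and Igtp are neighbours on the chromosome, and their windows align over 270 columns with 90.4% identity, so their matches are not independent of each other. The window of Tgtp1 aligns over 32 columns with that of Irgm2 (93.8% identity) and with that of Igtp (90.6%). Its matches may thus not be independent of theirs either. Irgm2 and Tgtp1 share a run of 20 bases that ends with the GAS, aaactagccatttccaggaa.

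IFG raised all 6 genes within 1 h, by 4.60-fold for Ifi47 to 8.90-fold for Irgm1. This was 6 of 6 members against 0.379% of all features, and only 47 of 12389 features were called higher at that time. At 2 h it was 5 of 5 members tested (1.09% of all features) and at 4 h again 5 of 5 (1.72%), with Irgm1 untested at both times.

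Among the regulators, Irgm1 stood at 3.17, 3.21 and 3.08 in the 3 replicates of IFG 1 h (3.15 ± 0.07, limma adjusted p = 3.29e-11). Its replicates were the closest together of the 6 genes. At 4 h of IFG it had a value in 1 replicate, 3.47. Irgm2 stood at 3.17, 3.20 and 2.92 at 1 h, at 4.23, 3.93 and 4.14 at 2 h, and at 3.35, 3.59 and 4.22 at 4 h. It was highest at 2 h (4.10 ± 0.16), and its 4 h replicates (3.72 ± 0.45) overlapped those of 2 h. Igtp was the lowest regulator at 1 h, with 2.57, 2.69 and 2.45. It then reached 4.24, 3.94 and 3.36 at 2 h and 4.05, 3.81 and 4.52 at 4 h, where the ranges overlapped.

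Among the effectors, Iigp1 read 2.81, 3.42 and 2.66 at 1 h, 5.21, 4.99 and 4.56 at 2 h, and 5.71, 5.28 and 5.80 at 4 h, where its mean of 5.59 ± 0.28 is a 48.3-fold ratio. The replicates of the 3 times did not overlap. Tgtp1, the mean of 2 probes, read 3.08, 3.32 and 2.21 at 1 h, 5.17, 5.01 and 4.28 at 2 h, and 5.31, 5.54 and 5.85 at 4 h (5.57 ± 0.27). Its 1 h replicates lay below all later ones. Ifi47 had the smallest ratio of the family at 1 h, with 1.97, 2.62 and 2.02, and reached 3.90, 4.07 and 3.28 at 2 h. At 4 h it had 2 replicates, 4.49 and 4.36.

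**Figure D1:**
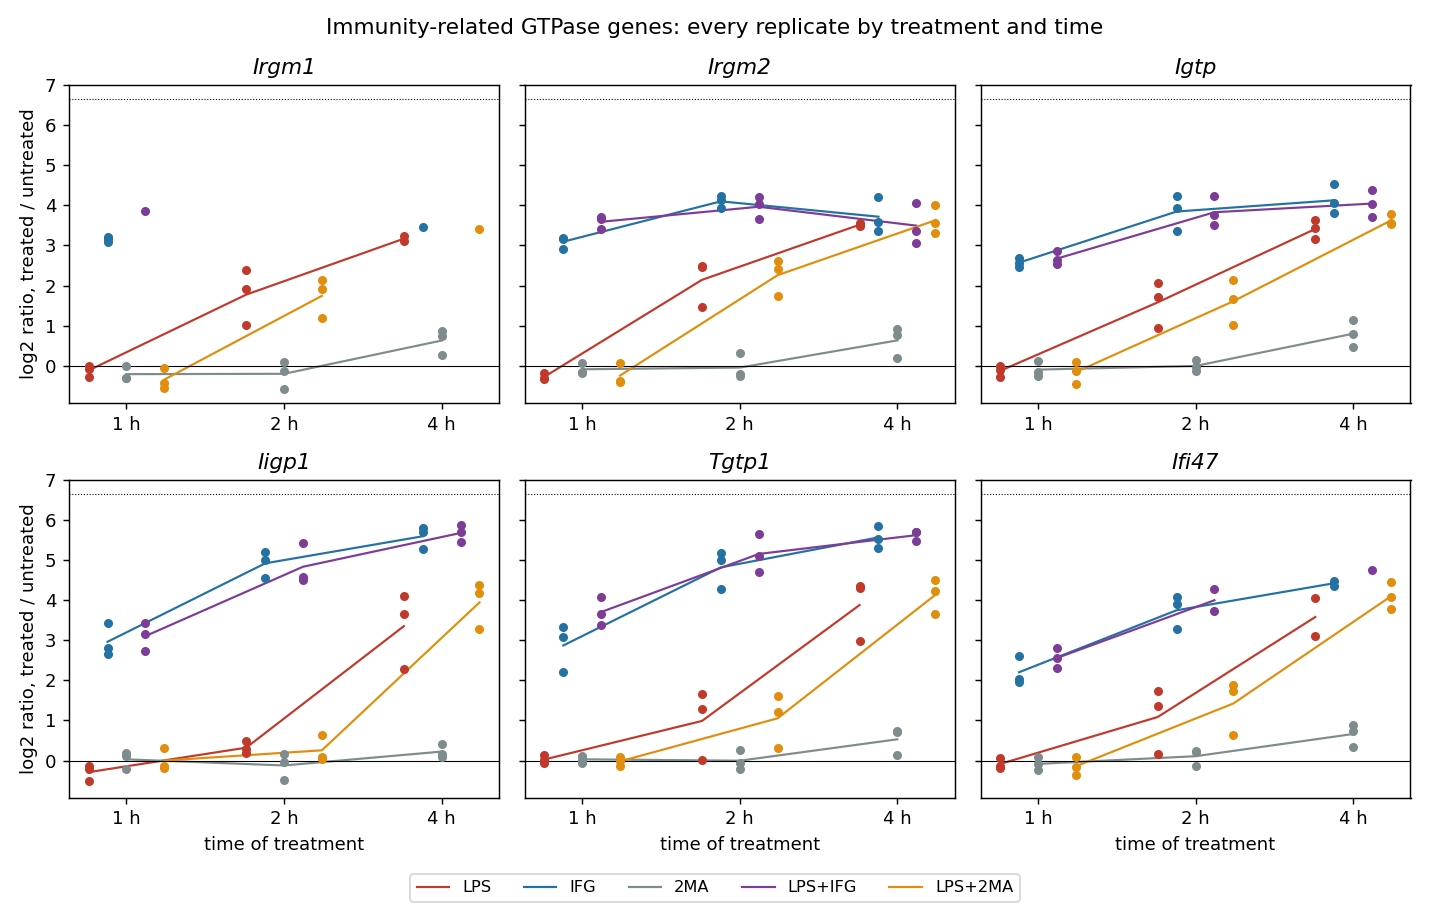
Log2 ratio of treated over untreated RNA (vertical axis) at 1, 2 and 4 h (horizontal axis) for each of the 6 genes, with a point for every replicate and a line through the means of conditions with at least 2 replicates, coloured by treatment; the dotted line marks the limit of 6.64. Every replicate of IFG and LPS+IFG at 1 h is above 1.9 in all 6 genes, LPS and LPS+2MA climb between 1 and 4 h, and 2MA alone stays below 1.2.

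With LPS the ratios rose later. At 1 h it raised 0 of 6 members by limma's test (1.03% of all features; 0 of 6 at an unadjusted p under 0.05), with means between -0.29 for Iigp1 and 0.03 for Tgtp1. At 2 h it raised 4 of 6 (1.88% of all features) and at 4 h 6 of 6 (3.56%), where the means lay between 3.17 and 3.88.

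At 2 h all 3 regulators were called. Irgm2 read 2.47, 2.48 and 1.47 at LPS 2 h (2.14 ± 0.59, limma adjusted p = 1.38e-11) and 3.50, 3.56 and 3.49 at 4 h. Irgm1 read 2.39, 1.91 and 1.03 at 2 h (adjusted p = 1.78e-07), and 3.10 and 3.23 in 2 replicates at 4 h. Igtp read 2.07, 1.72 and 0.94 at 2 h (adjusted p = 1.55e-08) and 3.64, 3.43 and 3.17 at 4 h. In these 3 genes, as in the 3 effectors, every 4 h replicate with a value lay above every 2 h replicate.

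Of the effectors, Iigp1 was not called at LPS 2 h, where it read 0.49, 0.28 and 0.19 (95% interval -0.13 to 0.77, adjusted p = 0.425), and then reached 4.11, 3.66 and 2.29 at 4 h. Tgtp1 read 1.28, 1.66 and 0.02 at 2 h, and its mean of 0.99 passed the p threshold (adjusted p = 0.00433) but fell just short of 2-fold. Of its 2 probes tested singly at 2 h, NM_011579 was called (mean 1.53) and U15636 was not (0.44). Tgtp1 read 4.36, 4.30 and 2.98 at 4 h. Ifi47 read 1.35, 1.74 and 0.16 at 2 h and was called (mean 1.09, adjusted p = 0.000593), but not without LPS 2 h replicate 1 (0.95) or replicate 2 (0.76). At 4 h it read 4.04 and 3.12 in 2 replicates. Set 3 was the lowest of the 3 sets for all 6 members at LPS 2 h, and without LPS 2 h replicate 3 Tgtp1 was 1.47 and called (adjusted p = 0.000179).

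As a share of the log2 ratio reached at LPS 4 h, the 2 h value was 60.9% in Irgm2, 56.0% in Irgm1 and 46.3% in Igtp. In the effectors it was 30.3% for Ifi47, 25.4% for Tgtp1 and 9.57% for Iigp1. With IFG the same share was 110% in Irgm2, 93.2% in Igtp, 87.9% in Iigp1, 86.6% in Tgtp1 and 84.7% in Ifi47. These shares describe the means and were not tested.

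Set against LPS at the same time, IFG was higher in 6 of 6 members at 1 h (0.332% of all features) and in 5 of 5 at 2 h (0.851%). At 4 h it was higher in 2 of 5 (0.617%). The widest gap was that of Iigp1 at 2 h, 4.60 with SE 0.31 on the log2 scale (limma adjusted p = 3.56e-13), where IFG stood at 4.92 and LPS at 0.32. At 4 h the gap of Iigp1 was 2.24 with SE 0.31 (adjusted p = 1.77e-06) and that of Tgtp1 1.69 with SE 0.35 (adjusted p = 0.000906), while Ifi47 (0.84, 95% interval 0.06 to 1.63), Igtp (0.71, 0.20 to 1.23) and Irgm2 (0.20, -0.32 to 0.72) were not called. The Tgtp1 gap is a lower bound, since 2 of the IFG 4 h array values of its probe NM_011579 were at the limit. With all arrays scaled to an equal spread, Ifi47 was called as well at 4 h (1.54, adjusted p = 0.048).

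The gain from 1 to 4 h was larger with LPS than with IFG in 2 of 5 members tested (1.61% of all features). For Irgm2 the difference of gains was 3.17 with SE 0.36 (limma adjusted p = 1.82e-07) and for Igtp 1.99 with SE 0.36 (adjusted p = 0.000359). Iigp1 (1.01, 95% interval 0.12 to 1.90), Tgtp1 (1.16, 0.15 to 2.17) and Ifi47 (1.45, 0.43 to 2.46) were not called. The Tgtp1 value averages 2 probes that differ. Probe NM_011579 was called on its own (2.69, limma adjusted p = 0.00225). It had 2 array values at the limit in IFG 4 h, so this value and the Tgtp1 mean are upper bounds. Probe U15636 rose from 0.02 to 2.93 with LPS and from 1.82 to 5.10 with IFG, so its gain was not larger with LPS. With the replicate number as a block Ifi47 was called (1.46, adjusted p = 0.00888), as it was with all arrays and a dye term (adjusted p = 0.00958). Without set 3 in any condition, 4 of 4 members tested were called, with Iigp1 at 1.84 and Tgtp1 at 2.04. Without LPS 4 h replicate 3 alone, Iigp1 was called at 1.54.

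**Figure D2:**
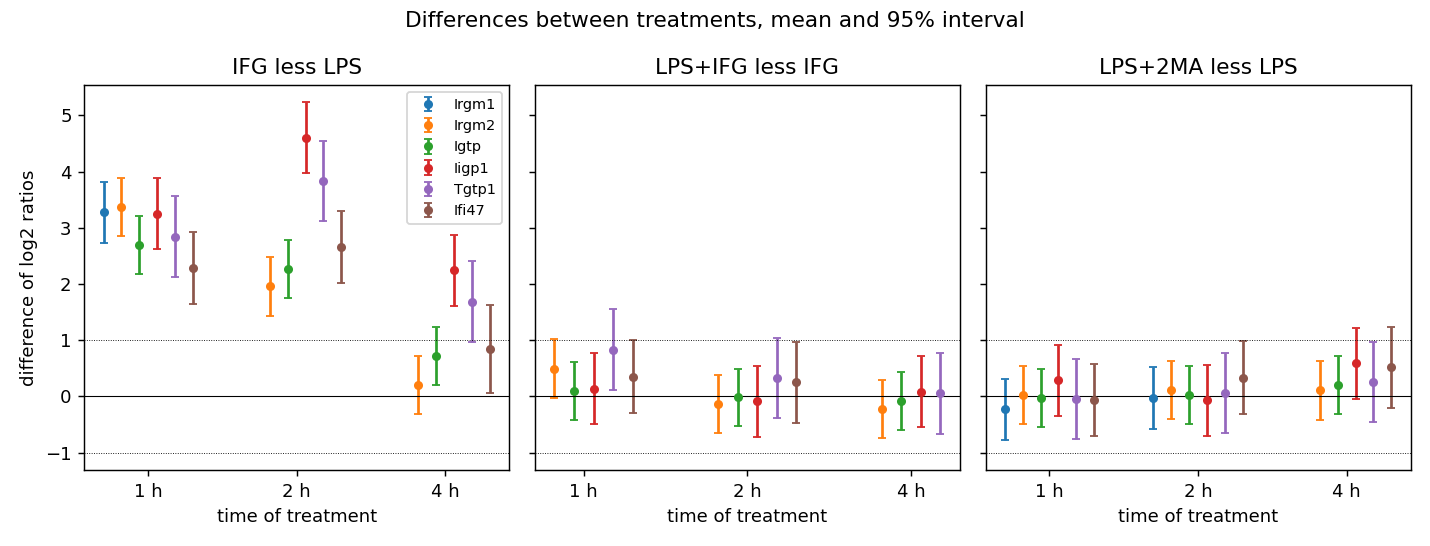
Difference of mean log2 ratios (vertical axis) at 1, 2 and 4 h (horizontal axis) for IFG less LPS, LPS+IFG less IFG and LPS+2MA less LPS, with a point and 95% interval for each gene tested; dotted lines mark a 2-fold difference. IFG less LPS narrows by 4 h to 0.20 in Irgm2 and stays at 2.24 in Iigp1, whereas the points of both other panels lie between -0.23 and 0.83.

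LPS+IFG raised 5 of 5 members tested at 1 h (1.7% of all features), 5 of 5 at 2 h (2.93%) and 4 of 4 at 4 h (4.42%). Against LPS alone it was higher in 5 of 5 at 1 h (0.633%). The same count was 5 of 5 after 2 h (0.819%), and 2 of 4 after 4 h (0.764%), namely Iigp1 (2.33, SE 0.31) and Tgtp1 (1.74, SE 0.35). At 4 h Igtp differed by 0.63 (95% interval 0.12 to 1.15) and Irgm2 by -0.02 (-0.54 to 0.50). With arrays scaled to an equal spread neither Iigp1 (1.69, adjusted p = 0.0567) nor Tgtp1 (1.22, adjusted p = 0.26) was called at 4 h. This comparison shares its LPS samples with that of IFG against LPS.

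Between LPS+IFG and IFG no member was called by limma's test. The calls were 0 of 5 members at 1 h (1.13% of all features, either direction; 1 at an unadjusted p under 0.05), 0 of 5 at 2 h (2.05%; 0 unadjusted) and 0 of 4 at 4 h (2.43%; 0 unadjusted). The largest difference was that of Tgtp1 at 1 h, where LPS+IFG read 4.08, 3.65 and 3.39 and IFG 3.08, 3.32 and 2.21, so that all replicates of the first lay above those of the second (0.83, 95% interval 0.12 to 1.55, limma adjusted p = 0.443). Within sets at 1 h, LPS+IFG was above IFG in 3 of 3 sets for 4 of 5 members: Irgm2 by 0.49, 0.51 and 0.49, Tgtp1 by 1.00, 0.33 and 1.18, Ifi47 by 0.59, 0.20 and 0.27, and Iigp1 by 0.34, 0.01 and 0.07. With the replicate block the limma adjusted p was 0.0839 for Tgtp1 and 0.374 for Irgm2, and no member was called. The share of all features with LPS+IFG above IFG in every set was not counted. At 2 h Irgm2 was below IFG in every set (-0.04, -0.27 and -0.10). Tgtp1 was above it in every set (0.48, 0.10 and 0.42), and Ifi47 in the 2 sets with a value (0.37 and 0.45). At 4 h Irgm2 (-0.29, -0.23 and -0.15) and Igtp (-0.003, -0.10 and -0.14) were below it in every set. The other members tested at 2 and 4 h went both ways. At 2 and 4 h the 95% intervals of the members tested lay between -0.74 and 1.05. With arrays scaled to an equal spread, LPS+IFG was lower than IFG at 2 h in Irgm2 (-1.63, adjusted p = 0.0123) and Iigp1 (-1.70, adjusted p = 0.027), a pattern that the unscaled means of -0.13 and -0.08 do not show.

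In single replicates, LPS+IFG took Iigp1 to 5.70, 5.45 and 5.88 at 4 h and Tgtp1 to 5.70, 5.47 and 5.70. Their means (5.68 ± 0.22 and 5.62 ± 0.13) lay beside those of IFG 4 h, with replicates that overlapped. For Tgtp1 no order of these conditions can be read, because probe NM_011579 had values at the limit in both and probe U15636 read 5.03 in LPS+IFG 4 h and 5.10 in IFG 4 h. Irgm2 read 3.06, 3.36 and 4.07 and Igtp 4.05, 3.71 and 4.38. Ifi47 had 1 replicate at 4 h, 4.76, and Irgm1 had 1 at 1 h, 3.87, and none later.

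Less the sum of the log2 ratios of LPS and IFG, LPS+IFG was called lower in 0 of 5 members at 1 h (0.00813% of all features; 1 above the sum at an unadjusted p under 0.05, Irgm2), in 2 of 5 at 2 h (0.162%) and in 4 of 4 at 4 h (1.12%). At 4 h the sums were 7.23 for Irgm2, 7.54 for Igtp, 8.95 for Iigp1 and 9.45 for Tgtp1, all over the limit of 6.64, so that no deposited value could have reached them. At 2 h the sum for Irgm2 was 6.24, near the limit, and LPS+IFG lay below it by 2.28 (SE 0.31, limma adjusted p = 0.000105, difference -2.28). The sum for Igtp was 5.43 and the difference -1.60 (SE 0.31, adjusted p = 0.00664). Iigp1 (sum 5.24, difference -0.41), Tgtp1 (5.81, -0.65) and Ifi47 (4.83, -0.84) were not called. Tgtp1 was called lower with arrays scaled to an equal spread (-2.30, adjusted p = 0.0277) and without set 3 in any condition (-1.18, adjusted p = 0.0343). The sum for its probe NM_011579 alone was 7.12 at 2 h, over the limit, and that for probe U15636 was 4.50. The call of Igtp was lost without LPS 2 h replicate 1 (-1.35) and without IFG 2 h replicate 1 (-1.40), which left 1 member.

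2MA alone raised 0 of 6 members at 1 h (0.266% of all features; 0 at an unadjusted p under 0.05), 0 of 6 at 2 h (0.323%; 0 unadjusted) and 0 of 6 at 4 h (0.154%; 5 unadjusted) by limma's test. These shares are for the calling rule, and the 5 cannot be set against them. At 4 h each of the 6 members was above 0 in all 3 sets, but the members share the same arrays. Probe U15636 of Tgtp1 on its own read -0.006 in set 3. The share of all features above 0 in all 3 sets was not counted. Igtp read 1.14, 0.80 and 0.46, a mean of 0.80 ± 0.34 that passed the p threshold (adjusted p = 0.0106) without reaching 2-fold. By the p threshold alone this was 1 of 6 members against 1.34% of all features. Irgm2 (0.63 ± 0.38, adjusted p = 0.0623), Irgm1 (0.63 ± 0.32, 0.103), Ifi47 (0.66 ± 0.28, 0.158), Tgtp1 (0.53 ± 0.33, 0.434) and Iigp1 (0.22 ± 0.18, 0.898) did not pass it. Set 3 was the lowest set in all 6.

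LPS+2MA raised 0 of 6 members at 1 h by limma's test (1.16% of all features; 0 unadjusted), 5 of 6 at 2 h (2.24%) and 5 of 5 at 4 h (4.54%). At 2 h Irgm2 read 2.60, 2.42 and 1.75, Igtp 2.14, 1.66 and 1.02, and Iigp1, the one not called here, 0.64, 0.09 and 0.04. Tgtp1 (1.22, 1.62 and 0.32) was called with a mean of 1.05, but not without LPS+2MA 2 h replicate 1 (0.97) or replicate 2 (0.77). At 4 h Iigp1 read 4.37, 4.18 and 3.28 and Ifi47 4.08, 4.44 and 3.77.

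Against LPS, LPS+2MA changed 0 of 6 members at 1 h (0.073% of all features, either direction), 0 of 6 at 2 h (0.0243%) and 0 of 5 at 4 h (0.114%), by limma's test and also at an unadjusted p under 0.05. The largest difference was that of Iigp1 at 4 h, 0.59 with a 95% interval of -0.04 to 1.22. A p over the threshold does not show that the treatments act alike: the intervals over all members reached from -0.78 to 1.23.

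Steps in time were also tested, each ratio being against untreated RNA of its own time. With LPS, 4 of 6 members were higher at 2 h than at 1 h (0.673% of all features; Irgm1, Irgm2, Igtp and Ifi47) and 6 of 6 at 4 h than at 2 h (1.45%). LPS+2MA gave 4 of 6 (0.794%; the same 4 genes) and 5 of 5 (1.94%). The step from 2 to 4 h was 3.03 with SE 0.31 for Iigp1 under LPS and 1.38 with SE 0.26 for Irgm2. With arrays scaled to an equal spread, the step of LPS from 2 to 4 h was called in the 3 effectors (2.02 to 2.36) and not in the 3 regulators (0.68 to 1.15). The step of Ifi47 from 1 to 2 h of LPS (1.17, adjusted p = 0.0411) was no longer called without any 1 of the LPS 1 h replicates (1.13 to 1.25), LPS 2 h replicate 1 (1.04) or LPS 2 h replicate 2 (0.84), and stayed called without LPS 2 h replicate 3 (1.63).

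With IFG, 4 of 5 members were higher at 2 h than at 1 h (0.195% of all features), Irgm2 being the exception (1.01, adjusted p = 0.0846; called with all arrays and a dye term, 1.12, adjusted p = 0.000837, and with only the compared conditions fitted, adjusted p = 0.00861), and 0 of 5 at 4 h than at 2 h by limma's test (0.292%; 2 unadjusted, Iigp1 and Tgtp1). With arrays scaled to an equal spread, Irgm2 was called lower at 4 h than at 2 h of IFG (-1.75, adjusted p = 0.0299). LPS+IFG gave 4 of 5 (0.895%, again without Irgm2, 0.38) and 0 of 4 (0.935%; 1 unadjusted, Iigp1). The IFG count from 1 to 2 h fell to 1 without IFG 1 h replicate 3 and to 2 without IFG 2 h replicate 1 or replicate 2, and Iigp1 was called each time. The LPS+IFG count from 1 to 2 h was 2 without LPS+IFG 1 h replicate 3, 1 without LPS+IFG 2 h replicate 1, and 0 with arrays scaled to an equal spread. Without LPS+IFG 2 h replicate 1, Iigp1 rose from 2 to 4 h of LPS+IFG (1.14, adjusted p = 0.0338).

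Ordered by mean, every member had a gap after IFG 1 h: the replicates of IFG 1 h and of all conditions above it did not overlap those of the next lower condition. The gap between those means was 2.64 in Iigp1, 1.82 in Tgtp1, 1.38 in Irgm1, 0.96 in Igtp, 0.83 in Irgm2 and 0.78 in Ifi47. Below it lay LPS and LPS+2MA at 1 and 2 h and 2MA at all times. Among the upper conditions of Irgm2, from IFG 2 h (4.10) down to IFG 1 h (3.09), each neighbour overlapped the next. In Iigp1, LPS+IFG 4 h and IFG 4 h overlapped each other, and IFG 4 h did not overlap its next lower neighbour, IFG 2 h (4.92). It did overlap LPS+IFG 2 h (4.83), whose replicate 1 was 5.43. LPS+IFG 2 h did not overlap its next lower neighbour, LPS+2MA 4 h (3.94). Irgm1 was ordered over 9 conditions and Ifi47 over 14, because the others had under 2 replicates.

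**Figure D3:**
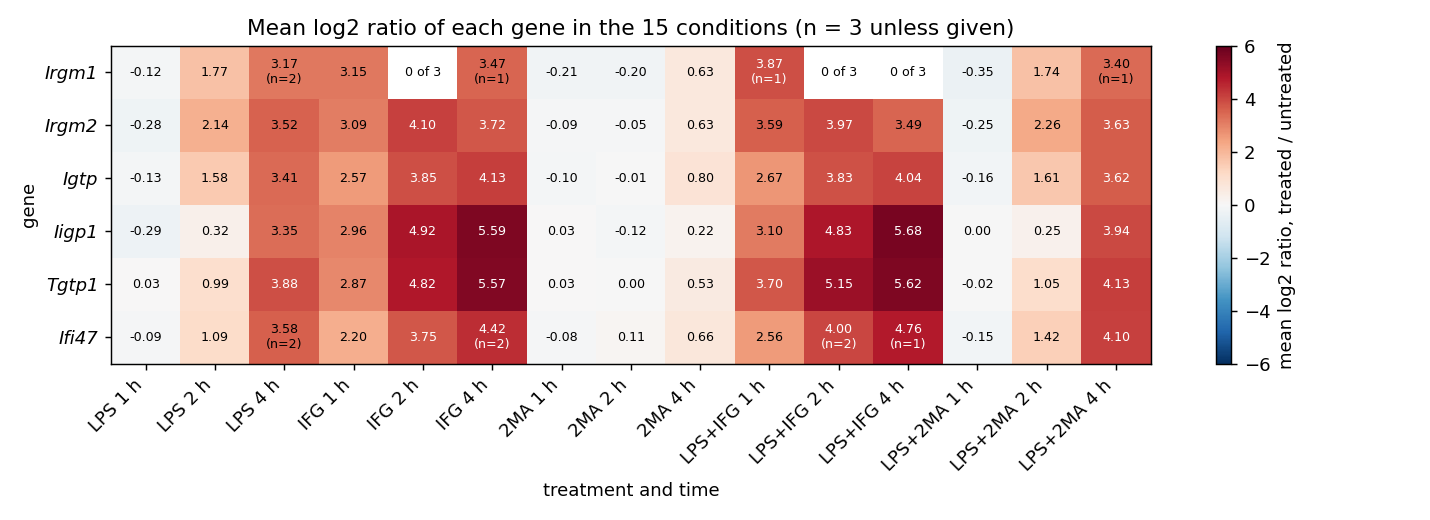
Mean log2 ratio of treated over untreated RNA (colour and printed value) for each of the 6 genes (rows) in the 15 conditions (columns), with n where it is below 3 and "0 of 3" where no replicate had a value. The darkest cells are Iigp1 and Tgtp1 at 4 h of IFG and LPS+IFG (5.57 to 5.68), and the blank cells are Irgm1 in IFG 2 h, LPS+IFG 2 h and LPS+IFG 4 h.

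Both probes of Tgtp1 had IFG and LPS+IFG at 2 and 4 h as their 4 highest conditions, with ratios of different sizes and some neighbours in another order. Probe NM_011579 lay above probe U15636 by a mean of 2.11 at IFG 1 h (1.75 to 2.50 over the replicates), 1.53 at IFG 2 h and 0.94 at IFG 4 h, and by 1.90 at LPS 4 h. At LPS 1 h, where neither was called, the mean difference was 0.00. At LPS 2 h probe NM_011579 stood at 1.53 ± 1.16 and was called on its own, and probe U15636 stood at 0.44 ± 0.55 and was not (limma adjusted p = 0.338). The first probe had 2 array values at the limit in IFG 4 h, 1 in LPS+IFG 2 h and 1 in LPS+IFG 4 h, so its means there are lower bounds. Tgtp2, a near-identical copy, lies close by on chromosome 11, and whether either probe also binds its RNA was not tested.

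**Figure D4:**
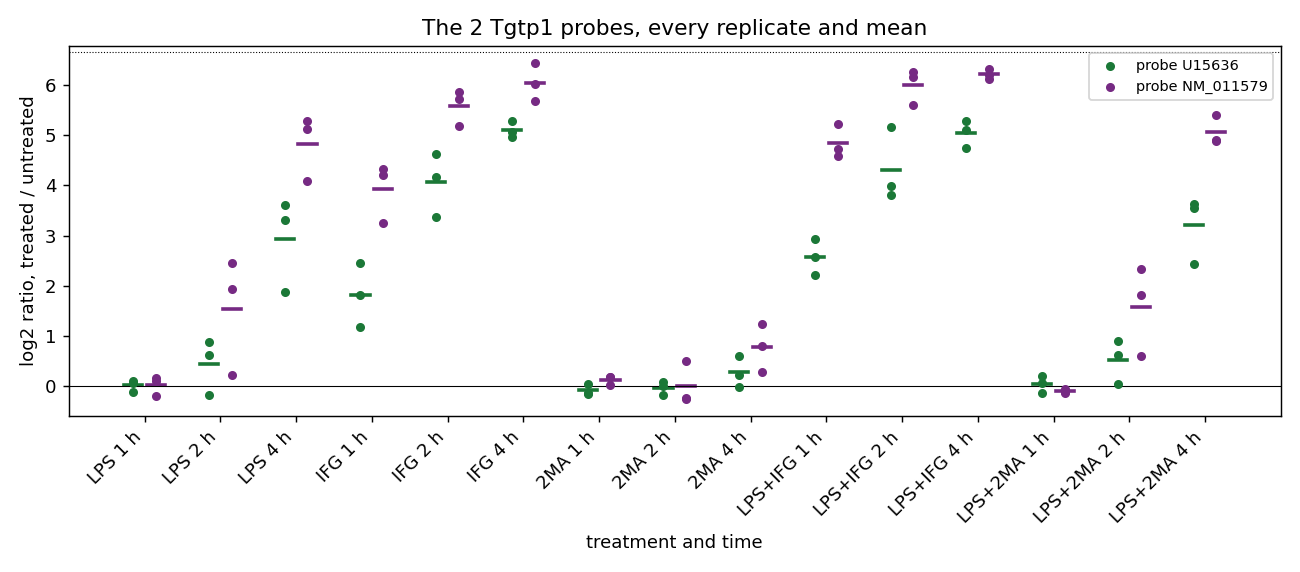
Log2 ratio of treated over untreated RNA (vertical axis) for the 2 probes of Tgtp1 in the 15 conditions (horizontal axis), with a point per replicate and a bar at the mean; the dotted line marks the limit of 6.64. Probe NM_011579 is above probe U15636 wherever the gene rises, with means of 3.92 and 1.82 at IFG 1 h and 6.04 and 5.10 at IFG 4 h.

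Set and dye moved with some values. Set 3 held the lowest value of 6 of 6 members at LPS 2 h, LPS+2MA 2 h and 2MA 4 h, and of 4 of 4 with all replicates at LPS 4 h, but the highest of 4 of 4 at IFG 4 h and LPS+IFG 4 h. The ratio of Irgm2 was higher with treated RNA in Cy5 than in Cy3 in 41 of 41 pairs (median difference 0.73), and that of Igtp lower in the median (-0.24, above 0 in 8 of 45). Averaging a pair balances both dyes only where both arrays had a value. Every single-array replicate of Irgm2 had treated RNA in Cy3, the dye with its lower ratio. These were replicate 2 of IFG 2 h and LPS+IFG 2 h and replicate 1 of IFG 4 h and LPS+IFG 4 h. The part of set and dye in the results beyond the alternatives given was not tested.

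Genes of the interferon gamma pathway were measured for 14 of 15 listed. IFG raised 3 of 14 at 1 h (median 0.06, against -0.01 over all features) and 4 of 14 at 4 h (0.22 against -0.01). LPS raised 1, 2 and 4 of 14 at 1, 2 and 4 h (1.03, 1.88 and 3.56% of all features). Irf1, the interferon-responsive transcription factor, led with IFG, at 3.45 ± 0.50, 3.67 ± 0.06 and 3.86 ± 0.13 after 1, 2 and 4 h. With LPS it stood at 0.60 ± 0.39, 2.29 ± 0.38 and 2.71 ± 0.36. Irf8, a partner factor of myeloid cells, reached 2.04 ± 0.55 at IFG 1 h and 1.01 ± 0.20 only at LPS 4 h. Socs1, the feedback inhibitor of JAK kinases, read 2.96 ± 0.18 at IFG 1 h and 1.68 ± 0.08 at LPS 4 h. Jak2, a receptor-associated kinase, led at LPS 4 h (2.76 ± 0.40). The receptor chains Ifngr1 and Ifngr2 and the kinase Jak1 were not called with IFG at 1 h (-0.15, -0.11 and -0.06).

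From Toll-like receptor 4 to type I interferon, 14 of 17 listed genes were measured, and LPS raised 1, 3 and 8 of 14 at 1, 2 and 4 h (medians 0.00, 0.35 and 1.04 against -0.01, -0.01 and 0.00 over all features). IFG raised 0, 2 and 1 of 14 (0.379, 1.09 and 1.72% of all features). Ifnb1, the interferon beta gene, read 2.09 ± 0.11, 3.42 ± 0.20 and 3.20 ± 0.94 at 1, 2 and 4 h of LPS and was not called with IFG (0.03, 0.16 and 0.54). Ifnb1 was called at LPS 1 h, as were 1.03% of all features, when none of the 6 GTPase genes was. A link between Ifnb1 and these genes was not tested. Stat2 reached 2.66 ± 0.14 at LPS 4 h and 1.74 ± 0.10 at IFG 4 h, Irf7 1.87 ± 0.25 at LPS 4 h, Irf9 1.01 ± 0.10 at LPS 4 h and Usp18 3.39 ± 0.16 at LPS 4 h (n = 2). The receptor genes Ifnar1, Ifnar2 and Tlr4 were not called with LPS or IFG.

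Other interferon-inducible GTPases were measured for 6 of 13 listed. IFG raised 4, 4 and 5 of 6 at 1, 2 and 4 h, and LPS 0, 4 and 6 of 6. Over all features the shares raised were 0.379, 1.09 and 1.72% with IFG and 1.03, 1.88 and 3.56% with LPS. Gbp2, a guanylate-binding protein, read 2.69 ± 0.88 at IFG 1 h and 5.94 ± 0.72 at IFG 4 h, and 5.10 ± 0.58 at LPS 4 h. Mx1, an antiviral GTPase classed with type I interferon, had the other order, 3.70 ± 0.30 at LPS 4 h and 1.04 ± 0.16 at IFG 4 h. Of 18 listed autophagy and vacuole partners, 17 were tested at IFG 1 h and 1 was called, the ubiquitin ligase gene Trim21 (1.88 ± 0.07). Trim21 was also the one gene of that list raised at IFG 4 h (1.31 ± 0.51) and at LPS 4 h (2.80 ± 0.25, of 16 tested). Of the cell type markers, 1 of 5 macrophage genes tested was raised at IFG 4 h and LPS 4 h (Fcgr1, 1.68 ± 0.42 and 1.90 ± 0.23), and none of 5 T cell, 3 B cell, 3 NK cell and 4 fibroblast genes. The other 11 listed genes of the family were not analysed here.

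Profiles were compared by Pearson's correlation over the 15 condition means, as a description, since the means share arrays and perhaps untreated RNA. The mean profile was that of the 4 members with at least 2 replicates in every condition (Irgm2, Igtp, Iigp1 and Tgtp1). Among 10191 candidate genes, it was most like that of Batf2 (r = 0.986), a transcription factor of the AP-1 family. Next came Gbp2b (0.972), Cd274 (0.971), which encodes an immune checkpoint ligand, Nampt (0.955), Gbp8 (0.949), Ifi203 (0.948), Stat3 (0.945) and Myd88 (0.940). Batf2 read 1.75 at IFG 1 h, -0.11 at LPS 1 h and 2.58 at LPS 4 h. Within the family, Iigp1 and Tgtp1 were alike (r = 0.992), as were Irgm1 and Irgm2 over 9 conditions (0.991) and, across the classes, Igtp and Ifi47 over 14 (0.990). Igtp was at 0.977 with Tgtp1 and at 0.973 with Irgm2. The lowest were Irgm2 with Iigp1 (0.888) and Irgm1 with Iigp1 (0.880). For Irgm2 the nearest other genes were Irf1 (0.964) and Gdap10 (0.957), for Igtp Batf2 (0.974) and Cd274 (0.973), for Iigp1 Nampt (0.978) and Batf2 (0.960), and for Tgtp1 Batf2 (0.982) and Nampt (0.976). Ifi47 over 14 conditions was nearest to Tap1 (0.976), a peptide transporter gene, and Samhd1 (0.975), and Irgm1 over 9 to Gdap10 (0.977) and Tfb2m (0.960), the latter with ratios of only 0.17 at IFG 1 h and 0.22 at LPS 4 h.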

How the data were processed

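The deposited table holds log2 ratios for 90 dual-colour arrays. That the unit is log2 follows from the deposited values, which are signed and stop at the log2 of 100. Image reading, background handling and normalization by the authors are not given in the sources used here. Exact zeros, which made up 7.84 to 17.0% of an array, were read as missing. Signs were turned on arrays with treated RNA in Cy3, dye-swapped pairs were averaged, and probes of a gene were averaged (13738 of 16281 probes named 1 gene).

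A mean per condition was fitted to 45 replicates, which share 1 estimate of the spread, and variances were moderated with limma 3.58.1 in R 4.3.3 (prior 5.14 degrees of freedom, prior SD 0.189). There were 39 comparisons, each adjusted by Benjamini and Hochberg. The routine gave limma's own values on the deposited data in the comparisons checked. Simulated replicates served to check that planted changes were called. With a median residual SD of 0.205, precision is limited by how many arrays there are.

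The members, gene lists and comparisons were chosen with earlier results of these data known. The requirement of 2 of 3 replicates in each compared condition was set after the zeros were seen, because a value in 2 of 3 replicates of every condition drops Irgm1 and Ifi47. Other genes were named by rule: pathway genes fixed by name, the called gene with the highest mean of each list at IFG 1 h, IFG 4 h and LPS 4 h, and the nearest profiles (8 for the mean, 2 for each member). Mx1 was named after its values were seen. Deviations of same-numbered sets correlated over 0.1 in 85 of 90 pairs at a time (median 0.419), including all pairs of LPS+IFG with LPS and with IFG, which suffices to treat those as paired, and in 28 of 45 across times. The comparisons above do not use the pairing; a replicate block was an alternative. Sequences are RefSeq's, read with Python 3.11.15, and aligned with Biopython 1.88. Figures used matplotlib 3.10.9.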

Additional observations from a re-analysis of the deposited data

Results flagged for a closer look

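Effects of the same treatment differed between times by a test of the difference itself. With LPS, 4 of 6 members were called higher at 2 h than at 1 h (0.673% of all features). From 2 to 4 h it was 6 of 6 (1.45%). With LPS+2MA the counts were 4 of 6 (0.794%) and 5 of 5 (1.94%). With IFG 4 of 5 members were higher at 2 h than at 1 h (0.195%), and with LPS+IFG also 4 of 5 (0.895%). Between stimuli, the gain from 1 to 4 h was larger with LPS than with IFG by 3.17 for Irgm2 and by 1.99 for Igtp on the log2 scale. No condition has more than 3 replicates, so single replicates were not examined as outliers.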

How the results depend on the processing

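Of 750 counts of members called under other settings, 36 moved by over 1.5 times, in 18 of 39 comparisons. Of 3760 values of members, 3658 kept their side of the threshold, 73 lost a call, 28 gained one and 1 reversed. A change of sign was counted as reversed only where the main or the other value was called. Changes of sign among values not called were not counted. With arrays scaled to an equal spread, the counts became 0 for LPS+IFG against LPS at 4 h, 2 for LPS+IFG against IFG at 2 h, 3 for LPS from 2 to 4 h, 1 for IFG from 2 to 4 h (Irgm2, lower) and 0 for LPS+IFG from 1 to 2 h. With exact zeros kept as values they became 3 and 1 for IFG against LPS at 2 and 4 h, 3 for LPS+IFG against LPS at 2 h, 2 and 3 for the steps of LPS, 2 for IFG from 1 to 2 h, 2 and 3 for the steps of LPS+2MA and 1 for LPS+IFG less the sum at 2 h, and the step of Irgm1 from 2 to 4 h of LPS reversed to -0.18. With a value required in every replicate, or in 2 of 3 replicates of every condition, which drops 2 members, they were 2 for LPS at 2 h, 3 for LPS+2MA at 2 h and 2 for both steps from 1 to 2 h of LPS and LPS+2MA. With treated RNA in Cy3 alone they were 2 for IFG and 1 for LPS+IFG from 1 to 2 h, and 1 for LPS+IFG less the sum at 2 h, as it was with only the compared conditions fitted. By the p threshold alone 2MA at 4 h gave 1, and without set 3 the gain of LPS less IFG gave 4. Leaving out single replicates gave 1 to 4 for IFG and for LPS+IFG from 1 to 2 h, 0 to 1 for LPS+IFG from 2 to 4 h and 1 to 2 for LPS+IFG less the sum at 2 h. The replicate block moved no count by over 1.5 times; the gain of Ifi47 was then 1.46 and called (adjusted p = 0.00888), and it changed no other call. The setting with 2 of 3 replicates in every condition, that with both dyes in a replicate and that without set 3 were chosen after the data were seen. Except where missing values or fewer samples drop a member, the cause was not tested.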
